A study of Rattus norvegicus with 6 samples.

Results

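Chromatin modifying enzyme genes were read here in primary motor neuron cultures exposed for 2 h to 1 microM camptothecin, beside cultures given DMSO. They were taken by name: a row of the value table had to carry 1 gene symbol beginning with Kdm, Kmt, Setd, Hdac, Kat, Smarc, Chd or Ehmt, followed by a digit, or by a letter and a digit. The rule found 58 genes on 60 rows, out of 14506 genes with such a row. A gene measured by several rows was represented by the row with the highest mean. In the rat assembly GRCr8, 87 protein-coding genes have symbols of this form, and the genes without a 1-symbol row were not analysed here. The 58 genes comprise 13 Kdm genes, 14 Kmt, Setd and Ehmt genes, 10 Hdac, 6 Kat, 10 Smarc and 5 Chd genes.

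The camptothecin group and the DMSO group had 3 arrays each. All 6 samples came from embryonic day 13.5 rats and were cultured for 2 days before the treatment. Camptothecin traps topoisomerase I on DNA, and DMSO served as the control. The labels call the samples biological replicates without telling how the cultures were kept apart, and the p-values reflect only the scatter among these 6 samples, which may be technical. In a bulk culture, fewer cells of a type and less RNA per cell cannot be told apart. Motor neuron marker genes were mostly dim: 4 of the 10 measured lay above the median brightness of all rows (6.28 on the log2 scale), and Isl1, a transcription factor that defines motor neurons, averaged 5.50 with camptothecin and 5.77 with DMSO and did not pass the test. Of those 10, 3 rose, the neuronal intermediate filament genes Nefh (change 0.59), Nefm (0.42) and Prph (0.31), and Foxp1 fell (-0.34). All 8 measured markers of spinal interneurons lay above that median. So did 6 of 7 of neural progenitors and astroglia, 4 of 4 of dividing cells and 3 of 3 of oligodendrocytes and Schwann cells. The counts were 4 of 6 for fibroblasts, 3 of 8 for endothelial cells, blood and microglia and 2 of 5 for skeletal muscle. Of all genes 41.6% lay below that median, so a count near the remaining share does not show that a cell type was present. Values cannot be assigned to motor neurons alone. Of the 8 interneuron markers 5 fell, while Slc32a1 (0.23), Lhx5 (0.26) and Lhx1 (0.10) did not pass. The mean level of all 8 per array was 8.19 to 8.32 with camptothecin and 8.66 to 8.78 with DMSO. Between their annotated ends in GRCr8, the 5 that fell cover 40 to 91 kb, and the 3 that did not pass cover 4.47 to 8.44 kb. Likewise Foxp1 covers 691 kb, and Nefh, Nefm and Prph cover 4.18 to 9.99 kb. In the other marker sets Cd68 (0.86), Pcna (0.44) and Acta1 (0.32) rose, and Pax6 (-0.58) and Mbp (-0.48) fell. The part of cell composition in the changes below was not tested.

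DNA in the nucleus is wrapped around histones, and enzymes that add or remove small groups on histone tails mark which genes are active or silent. Acetyltransferases (Kat) and deacetylases (Hdac) set acetylation. Methyltransferases, among them many Kmt, Setd and Ehmt proteins, and demethylases (Kdm) set methylation of lysines. The Smarc and Chd proteins belong to ATP-driven machines that slide or evict nucleosomes. In neurons several of these genes are known from developmental disorders in people and from the switch between dividing progenitor and differentiated cell.

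Promoter sequences are shown for the members with the 2 largest falls and for the largest rise and that of Smarcd1, so that the sequence around these start sites can be read beside the values that follow. The Kdm4c window lies at chr5:93146787-93147086 (plus strand), that of Kdm1a, which is also called LSD1, at chr5:154121726-154122025 (minus strand), that of Hdac7 at chr7:130840968-130841267 (minus strand) and that of Smarcd1 at chr7:132708377-132708676 (plus strand), each in GRCr8 and written 5′ to 3′ on the gene's strand. The table of RefSeq promoters, 250 bases before to 50 after the start, held 49 of the 58 genes, among them 13 of the 18 genes that fell and 3 of the 4 that rose by the test described below. Capitals mark the GC box, which was searched with the letters GGGCGG, the CCAAT box, named for its letters, and the E-box, searched as CACGTG, on either strand.
Kdm4c: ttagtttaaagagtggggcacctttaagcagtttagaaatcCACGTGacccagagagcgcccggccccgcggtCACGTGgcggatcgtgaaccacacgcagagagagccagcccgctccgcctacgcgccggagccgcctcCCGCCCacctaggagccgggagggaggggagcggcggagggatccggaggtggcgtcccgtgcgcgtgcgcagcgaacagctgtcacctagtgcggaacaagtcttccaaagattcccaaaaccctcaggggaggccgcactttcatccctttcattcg
Kdm1a: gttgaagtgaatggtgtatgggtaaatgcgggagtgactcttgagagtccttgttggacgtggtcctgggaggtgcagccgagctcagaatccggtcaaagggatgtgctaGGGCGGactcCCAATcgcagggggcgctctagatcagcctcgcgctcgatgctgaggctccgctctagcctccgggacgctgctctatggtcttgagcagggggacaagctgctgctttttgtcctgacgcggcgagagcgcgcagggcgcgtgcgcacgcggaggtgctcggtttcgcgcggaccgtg
Hdac7: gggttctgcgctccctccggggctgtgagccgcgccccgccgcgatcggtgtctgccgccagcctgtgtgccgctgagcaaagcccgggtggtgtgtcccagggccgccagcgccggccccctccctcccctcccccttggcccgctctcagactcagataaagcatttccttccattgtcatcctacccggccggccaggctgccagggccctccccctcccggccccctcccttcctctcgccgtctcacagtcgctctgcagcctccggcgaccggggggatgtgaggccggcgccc
Smarcd1: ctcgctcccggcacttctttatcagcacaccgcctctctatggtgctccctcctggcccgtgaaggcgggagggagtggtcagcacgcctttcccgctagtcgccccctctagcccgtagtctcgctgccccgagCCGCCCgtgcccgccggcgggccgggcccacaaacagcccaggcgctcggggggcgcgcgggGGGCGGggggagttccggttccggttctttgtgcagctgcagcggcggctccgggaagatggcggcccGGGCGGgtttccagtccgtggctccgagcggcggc

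The Kdm4c window holds 2 E-boxes and 1 GC box, the Kdm1a window 1 GC box and 1 CCAAT box, the Smarcd1 window 3 GC boxes and the Hdac7 window none of the 3 motifs. Promoters of the 49 genes were rich in CpG, with a median GC content of 63%, against 58% in all 11968 genes with a promoter, and a CpG observed-over-expected ratio of 0.82, against 0.66. A GC box was present in 39 of the 49 (79.6%, against 50.2% of all), a CCAAT box in 22 (44.9%, against 38.3%), an E-box in 5 (10.2%, against 7.87%) and an ETS motif (CCGGAAGT) in 5 (10.2%, against 5.93%). The letters TATAAA were in 0 of 49, against 11.8% of all, and the cyclic AMP response element TGACGTCA in 0, against 2.46%. An AP-1 motif (TGANTCA) was in 2 (4.08%, against 6.24%). Among the 13 that fell 11 held a GC box and 6 a CCAAT box, and of the 3 that rose 2 held a GC box. Both strands were searched, and no motif contains another. A match is a description of the letters only.

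More of these genes fell than rose. By limma's moderated test with Benjamini-Hochberg adjustment over all 29214 rows and a threshold of 0.05, 18 of the 58 genes fell (31%) and 4 rose (6.9%), while 36 did not pass. The count of rises was 2 without DMSO replicate 1 or without DMSO replicate 2 and 1 without DMSO replicate 3. Among all 14506 genes 9.35% fell and 11.3% rose, and the share that rose was 5.77%, 4.6% and 4.58% without DMSO replicates 1, 2 and 3. The median log2 change, camptothecin minus DMSO, was -0.08 for the 58 genes and 0.06 for all genes. The largest fall was that of the demethylase gene Kdm4c, to 30.3% of the DMSO level, and the largest rise that of the deacetylase gene Hdac7, 1.39-fold. The 3 camptothecin values lay below all 3 DMSO values for 23 of the 58 genes (39.7%, against 15.5% of all genes) and above them for 14 (24.1%, against 27.1%). Levels and changes are on the log2 scale throughout, with limma's standard error (SE) for changes, n = 3 per treatment.

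The split depends on how arrays are scaled. When the mean of the ribosomal protein genes was set equal in all arrays (ribosomal centring), which lowers the median change of all rows by 0.25, 34 members fell and 0 rose, against 29.3% and 2.5% of all genes. None of the 4 rises passed under that scaling, although each kept a value above 0. With each array centred on its median 21 fell (36.2%, against 11.1% of all genes) and 3 rose (5.17%, against 6.29%). With ribosomal centring 16 members were called lower that did not pass as deposited. Among these 16 were Ehmt1, Hdac2, Kat2b, Kat5, Kdm2b, Kdm6b, Kmt5a, Smarca1, Smarca2 and Smarcb1.

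**Figure D1:**
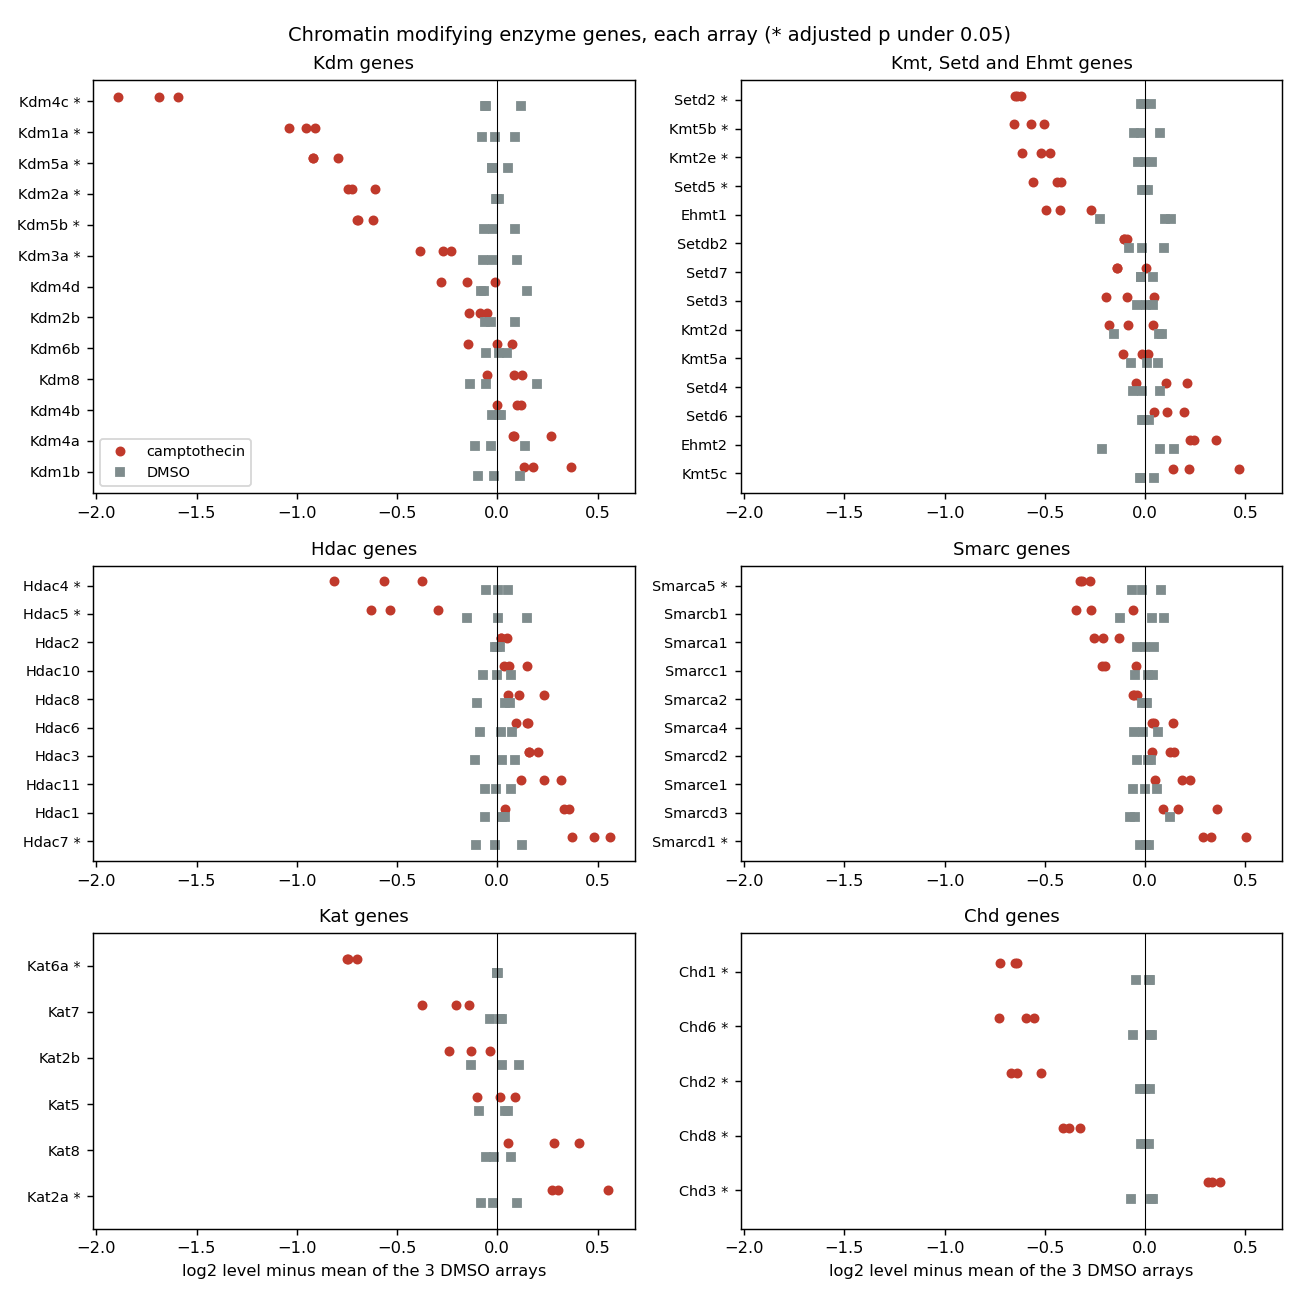
Log2 level in each array minus the mean of the 3 DMSO arrays, for all 58 genes by family; circles are camptothecin arrays, squares DMSO arrays, and a star marks genes past the threshold. The 3 Kdm4c circles lie farthest left, and in the Chd panel 4 genes lie left of their DMSO values and Chd3 right of them.

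Of the 13 demethylase genes 6 fell and 0 rose. Kdm4c encodes a demethylase of H3K9 and H3K36. Its level was 7.74, 7.83 and 7.53 with camptothecin, against 9.54, 9.37 and 9.36 with DMSO. All camptothecin arrays lay far below the DMSO arrays, and the change was -1.72 (SE 0.10, adjusted p = 0.000103). Kdm1a is the flavin-dependent demethylase of H3K4 that works with the corepressor CoREST. It measured 9.62, 9.66 and 9.53 with camptothecin, against 10.66, 10.49 and 10.56 with DMSO (change -0.97, SE 0.07, adjusted p = 0.000353). Kdm5a, a demethylase of trimethylated H3K4, measured 8.55, 8.43 and 8.43 with camptothecin and 9.32, 9.40 and 9.33 with DMSO. Its groups did not overlap either (change -0.88, SE 0.07). Kdm5b, which acts on the same mark, changed by -0.67 (SE 0.07).

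Kdm2a, a demethylase of H3K36 that binds CpG islands, measured 8.59, 8.73 and 8.61 with camptothecin against 9.33, 9.34 and 9.33 with DMSO (change -0.69, SE 0.07). Kdm3a, which removes methyl groups from H3K9, measured 8.08, 8.19 and 8.23 with camptothecin and 8.56, 8.39 and 8.43 with DMSO (change -0.30, SE 0.08, adjusted p = 0.0412). Its groups lay close together, and the call was lost when any 1 of the 6 arrays was left out. The 7 other Kdm genes did not pass. Their changes ran from -0.15 for the dim Kdm4d to 0.23 for Kdm1b, the second flavin-dependent enzyme. Kdm6b, a demethylase of H3K27, had nearly the same mean in both groups (7.68 with camptothecin, 7.70 with DMSO).

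Of the 14 Kmt, Setd and Ehmt genes 4 fell and 0 rose. Setd2, which writes trimethylated H3K36 along transcribed genes, measured 9.96, 9.94 and 9.93 with camptothecin, against 10.61, 10.58 and 10.56 with DMSO. Its within-group spread was small beside the change of -0.64 (SE 0.06, adjusted p = 0.00079). Kmt5b, which adds further methyl groups to H4K20, measured 10.43, 10.52 and 10.58 with camptothecin and 11.16, 11.07 and 11.03 with DMSO (change -0.58, SE 0.07). Kmt5a, which places the first methyl group on that lysine, did not pass (change -0.04, SE 0.07), and neither did Kmt5c, a relative of Kmt5b (0.28, SE 0.10, adjusted p = 0.0974). Kmt2e, a trithorax-group protein that reads methylated H3K4, measured 10.58, 10.53 and 10.44 with camptothecin and 11.02, 11.05 and 11.08 with DMSO (change -0.53, SE 0.07). Setd5, a gene linked to intellectual disability in people, ranged over 9.88 to 10.02 with camptothecin and 10.43 to 10.46 with DMSO (change -0.47, SE 0.07). Neither gene's groups overlapped.

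Ehmt1, a methyltransferase of H3K9, lay just outside the threshold. It measured 6.88, 7.04 and 6.81 with camptothecin and 7.44, 7.40 and 7.08 with DMSO, so DMSO replicate 3 lay close to the camptothecin arrays (change -0.40, SE 0.12, adjusted p = 0.0567). It passed in 9 of 17 alternatives, among them the fit without that array, the 3 other scalings and the fit with the replicate number as a block (adjusted p = 0.0495 by limma; range over all alternatives 0.00584 to 0.976). The remaining 7 genes of this family did not pass, with changes from -0.10 for Setdb2 to 0.27 for Ehmt2, the partner of Ehmt1.

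Of the 10 deacetylase genes 2 fell and 1 rose, and these 3 are class IIa enzymes. Hdac4 measured 6.98, 6.79 and 6.54 with camptothecin, against 7.30, 7.41 and 7.36 with DMSO. The camptothecin arrays spread widely but stayed below DMSO (change -0.58, SE 0.12, adjusted p = 0.0153). Hdac5 measured 8.12, 8.46 and 8.21 with camptothecin and 8.75, 8.90 and 8.60 with DMSO (change -0.49, SE 0.12, adjusted p = 0.0294). Hdac7 measured 6.77, 6.66 and 6.85 with camptothecin, against 6.27, 6.18 and 6.41 with DMSO, and so rose by 0.47 (SE 0.09, adjusted p = 0.0128). These 3 enzymes are known for shuttling between nucleus and cytoplasm in response to signals. Hdac1, Hdac2 and Hdac3, the nuclear class I enzymes of the large corepressor complexes, did not pass (changes 0.24, 0.03 and 0.17). For each of them the 3 camptothecin values nevertheless lay above the 3 DMSO values, as they did for 27.1% of all genes. With ribosomal centring the change of Hdac2 turned to -0.22 and passed (adjusted p = 0.0352). The other 4 Hdac genes had changes between 0.08 and 0.22 and did not pass. The Hdac4 call was lost without DMSO replicate 2 or without DMSO replicate 3, and the Hdac5 call without camptothecin replicate 1 or 3 or DMSO replicate 1 or 2 (log2 changes over all alternatives from -0.83 to -0.47 for Hdac4 and from -0.73 to -0.41 for Hdac5).

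Among the 6 acetyltransferases 1 fell and 1 rose. Kat6a, also called MOZ, measured 9.29, 9.34 and 9.29 with camptothecin and 10.04, 10.03 and 10.03 with DMSO (change -0.73, SE 0.06, adjusted p = 0.000438). Kat2a, also called GCN5, measured 8.58, 8.86 and 8.61 with camptothecin, against 8.41, 8.23 and 8.29 with DMSO. It rose by 0.38 (SE 0.10, adjusted p = 0.0388), a call lost without camptothecin replicate 2 or 3, without any 1 of the DMSO arrays and with arrays centred on their median. Kat5, the acetyltransferase of the TIP60 complex that takes part in the DNA damage response, had a mean of 8.32 in both groups (SE of the change 0.08). Kat7 (-0.24), Kat2b (-0.14) and Kat8 (0.25) did not pass.

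**Figure D2:**
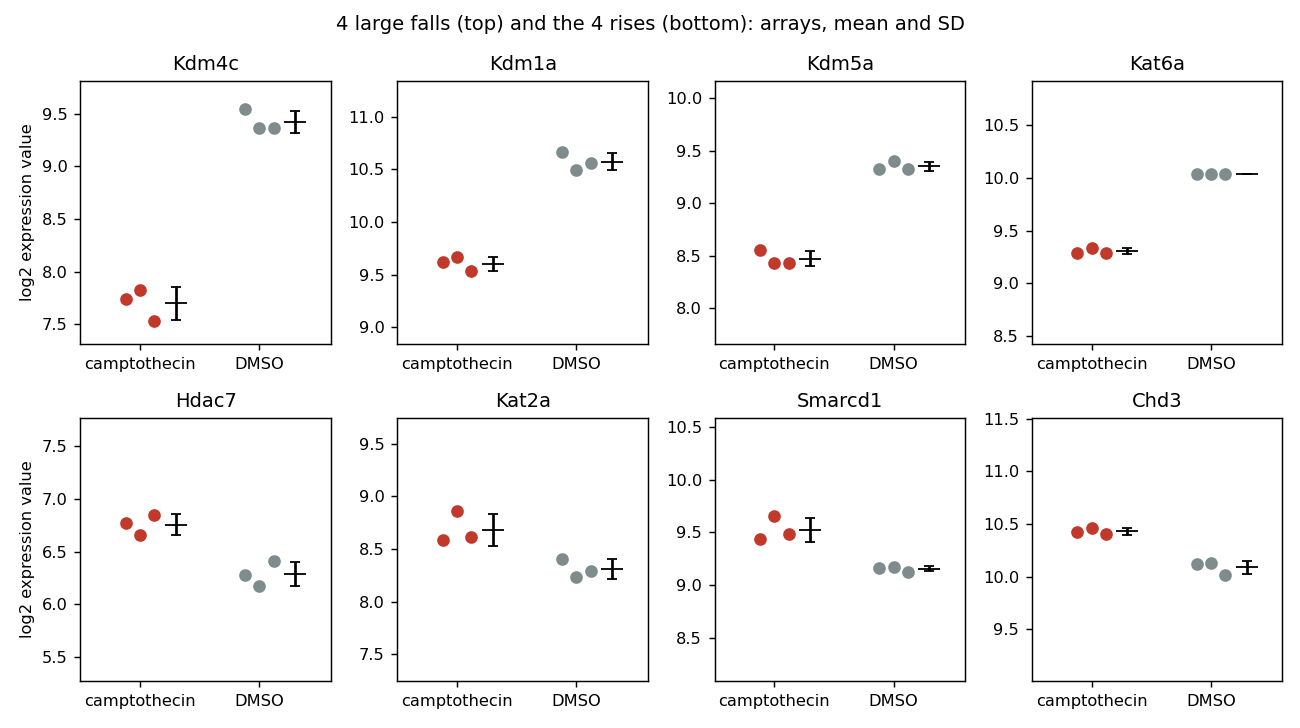
Log2 expression values of 4 genes with large falls (top) and the 4 genes that rose (bottom), camptothecin left of DMSO in each panel; points are arrays, and the bar beside them gives the mean and SD of 3. All panels span the same number of log2 units, and no gene's groups overlap.

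Among the remodelling genes, all 5 Chd genes passed, 4 of them lower. Chd1, which travels with elongating RNA polymerase II, measured 8.32, 8.40 and 8.39 with camptothecin, against 8.99, 9.06 and 9.06 with DMSO (change -0.67, SE 0.06, adjusted p = 0.00084). Its close relative Chd2 measured 8.89, 8.77 and 8.74 with camptothecin and 9.44, 9.41 and 9.38 with DMSO (change -0.61, SE 0.07). Chd6 changed by -0.63 (SE 0.08), and Chd8, a gene known from autism in people, by -0.37 (SE 0.06, adjusted p = 0.00837). Chd3, a subunit of the NuRD corepressor complex, went the other way with 10.42, 10.46 and 10.40 with camptothecin against 10.12, 10.13 and 10.02 with DMSO (change 0.34, SE 0.07, adjusted p = 0.0147). That call was lost without DMSO replicate 3.

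Of the 10 Smarc genes 1 fell and 1 rose. Smarca5, the ISWI remodeller also called SNF2H, measured 11.37, 11.38 and 11.42 with camptothecin and 11.63, 11.77 and 11.68 with DMSO (change -0.31, SE 0.07, adjusted p = 0.0236). Its call was lost without any 1 of the camptothecin arrays and without DMSO replicate 2 or 3. Smarcd1, an accessory subunit of the SWI/SNF complexes, measured 9.44, 9.66 and 9.48 with camptothecin, against 9.16, 9.17 and 9.13 with DMSO (change 0.37, SE 0.08, adjusted p = 0.0191). That rise was lost without any 1 of the DMSO arrays. Of the 2 alternative SWI/SNF ATPases, Smarca4 (BRG1) changed by 0.07 (SE 0.07) and Smarca2 (BRM) by -0.05 (SE 0.06); neither passed. The core subunit gene Smarcb1 (-0.23, SE 0.10, adjusted p = 0.178) did not pass either, nor did Smarcc1 (-0.15), Smarce1 (0.15), Smarcd2 (0.10), Smarcd3 (0.20) or the ISWI gene Smarca1 (-0.20, adjusted p = 0.0897).

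Relatives were set side by side. For 12 pairs of relatives chosen by name, the difference between the pair's log2 changes was computed from the 6 arrays, with an exact permutation test that cannot go below 0.1 with 3 arrays against 3 (two-sided), so no pair can pass a threshold of 0.05 before or after adjustment over the pairs. The SE of a difference is not limma's: it came from the spread of the pair's within-array differences in each group, without moderation. It can lie below limma's SE of either gene, as for Kdm1a with Kdm1b. The widest gap was between Kdm4b (0.07) and Kdm4c (-1.72), with a difference of 1.80 (SE 0.08, exact p = 0.1). Kdm1a and Kdm1b differed by -1.19 (SE 0.05), Ehmt1 and Ehmt2 by -0.67 (SE 0.18), Kdm2a and Kdm2b by -0.60 (SE 0.06) and Kat2a and Kat2b by 0.51 (SE 0.10), first gene minus second, each with exact p = 0.1 and, after Benjamini-Hochberg adjustment over the 12 pairs, 0.171. In these pairs the within-array differences of the camptothecin arrays and of the DMSO arrays did not overlap. Kdm5a with Kdm5b (-0.21, SE 0.06) and Smarcd1 with Smarcd3 (0.17, SE 0.07) also reached an exact p of 0.1. Chd1 with Chd2 (-0.06, SE 0.08, exact p = 0.5), Hdac4 with Hdac5 (-0.10, SE 0.19, exact p = 0.6), Smarca1 with Smarca5 (0.11, SE 0.07, exact p = 0.3), Smarca2 with Smarca4 (-0.12, SE 0.06, exact p = 0.2) and Hdac1 with Hdac2 (0.22, SE 0.10, exact p = 0.3) did not, which does not show that they change alike.

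**Figure D3:**
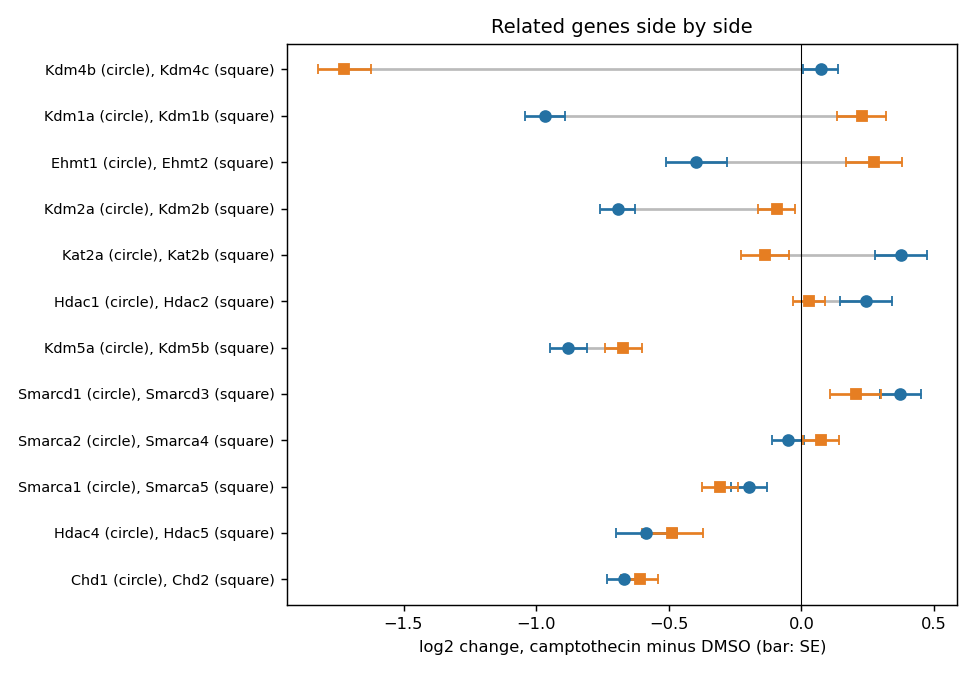
Log2 change, camptothecin minus DMSO, with its SE (n = 3 per treatment) for the genes of 12 pairs, ordered by the size of their difference; circles show the first and squares the second gene. Kdm4b with Kdm4c and Kdm1a with Kdm1b lie farthest apart, while the symbols of Chd1 and Chd2 nearly coincide.

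All 18 falls were among the 36 members that span 30 kb or more in GRCr8, and 0 were among the 22 shorter ones. Span here is the distance between the annotated ends of the gene, introns included. Among all genes under 30 kb 2.33% fell and 15.2% rose, and of the 22 short members 3 rose (13.6%): Kat2a (8.34 kb), Smarcd1 (10.5 kb) and Chd3 (26.4 kb). The short members that rose numbered 1 without DMSO replicate 1 or without DMSO replicate 2, and 0 without DMSO replicate 3, and the share among all genes under 30 kb dropped too, to 7.97%, 6.43% and 6.39% without DMSO replicates 1, 2 and 3. Between 30 and 100 kb 13 of 25 members fell (52%), against 16.2% of all genes of that span. Between 100 and 300 kb 5 of 11 fell (45.5%), against 33.2%. No member spans 300 kb or more. With ribosomal centring 28 of the 36 fell (77.8%, against 50.6% of all genes of 30 kb or more) and 6 of the 22 (27.3%, against 17.6% of all genes under 30 kb). The shortest members that fell were Hdac5 (34.9 kb) and Smarca5 (36.5 kb), and the only riser above 30 kb was Hdac7 (38.2 kb). As a description, the change and the span of a gene had a Spearman's rho of -0.64 across the 58 genes and -0.31 across 14499 genes with a span, where genes share the same arrays and are not independent.

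The members were brighter and less variable than genes in general. Their median level was 8.50, against 6.70 for all genes, and 4 of 58 lay below the median brightness of all rows. Their median within-group SD was 0.08, against 0.11. Within the members, the 18 that fell had a median level of 9.27 and a median SD of 0.06. The 4 that rose had 8.92 and 0.09, and the 36 that did not pass 7.71 and 0.09. Level and change had a Spearman's rho of -0.34 across the members and 0.06 across all genes. Among genes at or above the median brightness, 22.8% fell between 30 and 100 kb and 40.2% between 100 and 300 kb. The median change of the 25 members between 30 and 100 kb was -0.30, against -0.03 for such genes. Under 10 kb 1 of 6 members rose (16.7%), against 32.4% of genes at or above the median brightness. Between 10 and 30 kb 2 of 16 rose (12.5%), against 21%.

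Span did not order the members strictly. Smarca2 (168 kb) and Hdac8 (208 kb) had changes of -0.05 and 0.13 and did not pass, while Kdm4c, with nearly the span of Hdac8 (207 kb), had the largest fall. Hdac8 was dim, at 6.17 with camptothecin and 6.04 with DMSO. Kdm2b (138 kb), Kat2b (105 kb), Smarcc1 (106 kb) and Smarca4 (96.7 kb) did not pass either.

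**Figure D4:**
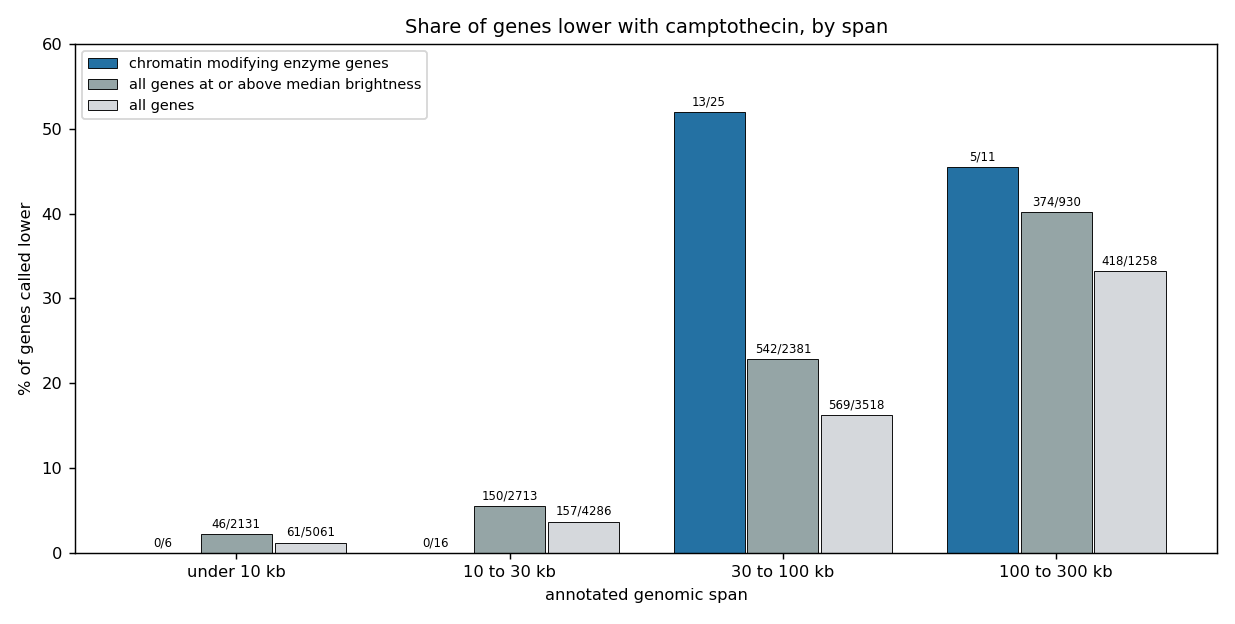
Percentage of genes that fell, by annotated genomic span, for the chromatin modifying enzyme genes, all genes at or above the median brightness, and all genes; the counts stand above the bars. The members reach 52% between 30 and 100 kb, against 22.8% and 16.2%. Between 100 and 300 kb they reach 45.5%, against 40.2% and 33.2%. Under 30 kb they stand at 0%, where the other bars read 1.21% to 5.53%.

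**Figure D5:**
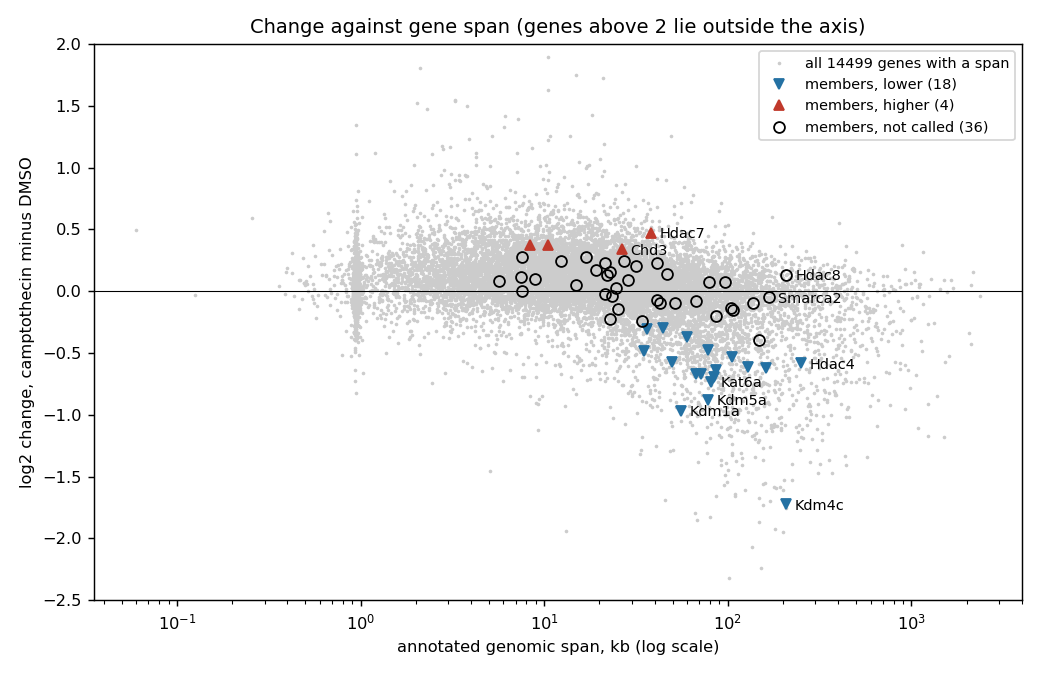
Log2 change, camptothecin minus DMSO, against annotated genomic span on a log axis, with all genes as small dots and the 58 members as symbols by call. Every downward triangle lies to the right of 30 kb, and open circles such as Hdac8 and Smarca2 lie among them.

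Partners and other chromatin genes outside the naming rule were counted too. The list holds 154 genes, of which 118 were measured by a 1-symbol row: Polycomb and COMPASS subunits, coactivators, corepressors, SWI/SNF, NuRD and INO80 subunits, bromodomain proteins and enzymes of DNA methylation. Of these 33 fell (28%, against 9.35% of all genes) and 13 rose (11%, against 11.3%), with a median change of 0.02. The count of rises was 8 without camptothecin replicate 2 or 3 and without DMSO replicate 2 or 3. Of all genes 6.91%, 6.16%, 4.6% and 4.58% rose in those fits. With ribosomal centring 59 fell and 7 rose, against 29.3% and 2.5% of all genes. Among the 60 of 30 kb or more 31 fell (51.7%, against 22.1% of all genes of that span and 29.2% of those at or above the median brightness). Among the 58 shorter ones 2 fell (3.45%, against 2.33%) and 12 rose (20.7%, against 15.2%). Of all genes at or above the median brightness, 32.4% rose under 10 kb and 21% between 10 and 30 kb, and 2.16% and 5.53% fell. The largest fall was in Arid4b, a subunit of the Sin3 corepressor that carries Hdac1 and Hdac2, at 8.39, 8.42 and 8.28 with camptothecin, against 9.99, 9.96 and 9.97 with DMSO (change -1.61, SE 0.07, adjusted p = 2.64e-05). Jmjd1c, a relative of Kdm3a, changed by -1.59 (SE 0.09), Baz2b, a bromodomain protein, by -1.14 (SE 0.06), the acetyltransferase Ep300 by -0.93 (SE 0.08) and the nuclear receptor coactivator Ncoa1 by -0.91 (SE 0.08).

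Of the 5 largest rises in that list, 4 were in genes under 30 kb, and Ing3 spans 30.3 kb. Among all genes, 1422 of the 1643 that rose span under 30 kb. Cbx8, a Polycomb protein that reads methylated H3K27, measured 6.79, 7.09 and 6.94 with camptothecin, against 5.89, 5.79 and 5.81 with DMSO (change 1.11, SE 0.09, adjusted p = 0.000449), and its DMSO values lay below the median brightness of all rows. The bromodomain gene Brd2 rose by 0.79 (SE 0.07), and the Polycomb genes Bmi1 and Pcgf2 rose by 0.61 (SE 0.08) and 0.58 (SE 0.10). Ing3, a subunit of the complex that contains Kat5, rose by 0.58 (SE 0.09). The calls of these 5 rises held with ribosomal centring (Cbx8 0.86, Brd2 0.54, Bmi1 0.37, Ing3 0.34 and Pcgf2 0.33). These genes were picked as the largest rises, so they are the likeliest of the list to keep a call under such a shift. The calls of Ing3 and Pcgf2 were lost with limma's treat against 1.2-fold.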

How the data were processed

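RNA from 3 camptothecin and 3 DMSO cultures was hybridised to Affymetrix Rat Gene 1.0 ST arrays, per the labels' protocols. The authors deposited log2 expression values, 1 per row (transcript cluster) and array; per the submitters' processing notes RMA and oligo were used. The sources used here give neither their versions nor the annotation behind the rows. Values ran from 1.24 to 13.7 over 29214 rows. Array medians were 6.31 to 6.33 with camptothecin and 6.22 to 6.28 with DMSO. Pearson's r between arrays over all rows was 0.992 to 0.995 within and 0.983 to 0.985 between treatments. At most 34 rows were equal between any 2 arrays of the same treatment. Precision is limited by how many arrays there are.

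The platform annotation gave 1 symbol to 15310 rows. The contrast of camptothecin over DMSO was fitted on all 29214 rows, unaltered, by lmFit followed by eBayes in limma 3.58.1 under R 4.3.3. Of 14506 genes, 14480 matched GRCr8 by gene identifier and 19 by symbol only, Hdac6 among them. GRCr8 spans describe that assembly, not the array. Named genes are every member past the threshold, for each family the largest change that did not pass and the smallest change, the pairs of relatives, and the 5 largest rises and falls of the other chromatin genes. Other members and the markers were named after their values were seen.

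The members, lists, pairs and span classes were chosen with earlier results of these data known. The fit was tested on simulated data. Alternatives were 3 other scalings, leaving out dim rows, a replicate block, trend and robust eBayes, array weights, each array left out, only 1-symbol rows, a threshold of 0.01, limma's treat against 1.2-fold and the mean of a gene's rows.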

Additional observations from a re-analysis of the deposited data

How the results depend on the processing

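Of the 22 members past the threshold, 11 kept their call and direction in all 17 alternatives: Kdm4c, Kdm1a, Kdm5a, Kdm2a, Kdm5b, Kat6a, Setd2, Kmt5b, Chd1, Chd2 and Chd6, all lower. Kmt2e, Setd5 and Chd8 lost it only with limma's treat against 1.2-fold, and Kdm3a lost it in 9 alternatives, with any array left out among them. Members called higher numbered 4 as reported, 0 with ribosomal centring, at an adjusted p of 0.01 and with treat, and 1 to 5 with an array left out. Of all genes 11.3% were called higher as reported, and 2.5%, 3.04% and 1.14% in those settings. With an array left out that share was 4.58% to 9.29%. Members called lower numbered 18 as reported, 34 with ribosomal centring and 11 with treat, and 14 to 16 with an array left out. The shares of all genes called lower were 9.35%, 29.3% and 3.52%, and 6.32% to 8.4% with an array left out. With ribosomal centring Hdac2 turned to -0.22 and passed, 1 of 16 members that were called lower there but not as reported. Other chromatin genes called higher numbered 13 as reported, 20 with quantile normalization again, 24 without dim rows, 21 with trend and robust, 8 with the replicate block, 7 with ribosomal centring and at 0.01, and 4 with treat. These were out of 118 genes, or 111 without dim rows. The shares of all genes called higher were, in the same order, 11.3%, 12.5%, 28.2%, 16%, 6.15%, 2.5%, 3.04% and 1.14%. With an array left out the other chromatin genes called higher numbered 8 to 14. Those called lower numbered 33 as reported, 59 with ribosomal centring and 13 with treat, against 9.35%, 29.3% and 3.52% of all genes. Fewer rows are tested without dim rows, and treat and 0.01 are stricter by construction. Ribosomal centring lowers the change of every row by 0.25, and a fit without an array rests on fewer arrays. The cause of the other shifts was not tested.

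The replicate numbers were not treated as pairs, since deviations of same-numbered arrays from their group means correlated at -0.08, 0.02 and 0.08. With the replicate number as a block 17 members fell and 3 rose, against 7.16% and 6.15% of all genes. The calls of Kdm3a, Smarca5 and Kat2a were lost and that of Ehmt1 was gained. The number of arrays limits what can be called: a change that did not pass is not shown to be absent.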
